A study of Mus musculus with 8 samples.

Results

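Bile acid synthesis and transport was followed in the liver RNA through 10 genes chosen by name, Cyp7a1, Cyp8b1, Cyp27a1, Cyp7b1, Nr1h4, Nr0b2, Abcb11, Slc10a1, Baat and Slc27a5, out of 35975 genes with a count. All 10 were among the 12883 genes tested, which held 10 or more counts in each library. Groups of C57BL/6 mice were compared, 4 infused with normal saline (NS) and 4 with 4-hydroxyphenylacetic acid (4-HPAA), a product of gut microbes, and the question was which liver transcripts 4-HPAA alters. Every mouse carried a catheter in the portal vein, was housed alone after surgery and received its infusion for 2 weeks from an implanted osmotic pump at 0.25 µL per hour. The pumps held 0.9% saline in both groups, and in the 4-HPAA group 55 mM 4-HPAA dissolved in it. Mice were 8 to 10 weeks old when bought. The study used males and females, and the labels do not give the sex of these mice. Controls were therefore operated and infused mice, and untreated livers were not part of the comparison.

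Bile acids are made from cholesterol in hepatocytes, conjugated to taurine or glycine, pumped into bile and taken up again from portal blood. Their synthesis follows a classic route that begins with 7α-hydroxylation of cholesterol and an alternative route that begins at the side chain. The nuclear receptor FXR (Nr1h4) senses bile acids and induces SHP (Nr0b2), which lowers transcription of Cyp7a1 and Cyp8b1, while it raises that of the canalicular pump Abcb11.

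Libraries held between 29559978 and 30673398 estimated counts, and the 10 genes held from 245 to 32403 counts per library. The labelled tissue was checked with summed markers, given as CPM, a gene's share of the library's counts after TMM scaling. The 7 hepatocyte markers found in the table summed to between 106050 and 142110 CPM, and the 8 markers of intestine and pancreas to between 55.8 and 76.1 CPM. Of those 8, Fabp2 (43.6 to 66.2 CPM) and Cela1 (7.83 to 14.2 CPM) were read in every library, and Prss2, Amy2b and Pnlip were at 0 in all. Vil1 was also read in every library, at only 2 to 11 counts, and was not tested. It was at 0.206 to 0.353 CPM with NS and at 0.0647 to 0.133 CPM with 4-HPAA, near the floor. Red blood cell markers set 2 libraries apart. They summed to 2560 CPM in NS replicate 2, against 247 to 376 CPM in the other NS mice, and to 735 CPM in 4-HPAA replicate 4, against 152 to 163 CPM in the other 4-HPAA mice. All 4 Y-linked genes listed were read in every library (Ddx3y, 72.1 to 89.5 CPM).

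None of the 10 genes passed the test between 4-HPAA and NS, the quasi-likelihood test of edgeR, and the adjusted p of each was 1.00. Of all 12883 genes 0 (0%) passed at an adjusted p under 0.05, 225 (1.75%) had an unadjusted p under 0.05, and DESeq2 called 2 genes, neither of them a bile acid gene listed here. Among the 10, only Cyp7a1 had an unadjusted p under 0.05, on the lower side, where 0.994% of all genes lay. In 0 of the 10 genes were the 2 groups separate without overlap, against 1.2% of all genes (0.652% with 4-HPAA lower and 0.543% with 4-HPAA higher). The log2 fold change was below 0 for 7 of the 10 genes and for 49.6% of all genes. Its median was -0.03 over the 10 and 0.0007 over all genes, and its median size was 0.05 against 0.07 over all genes.

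**Figure D1:**
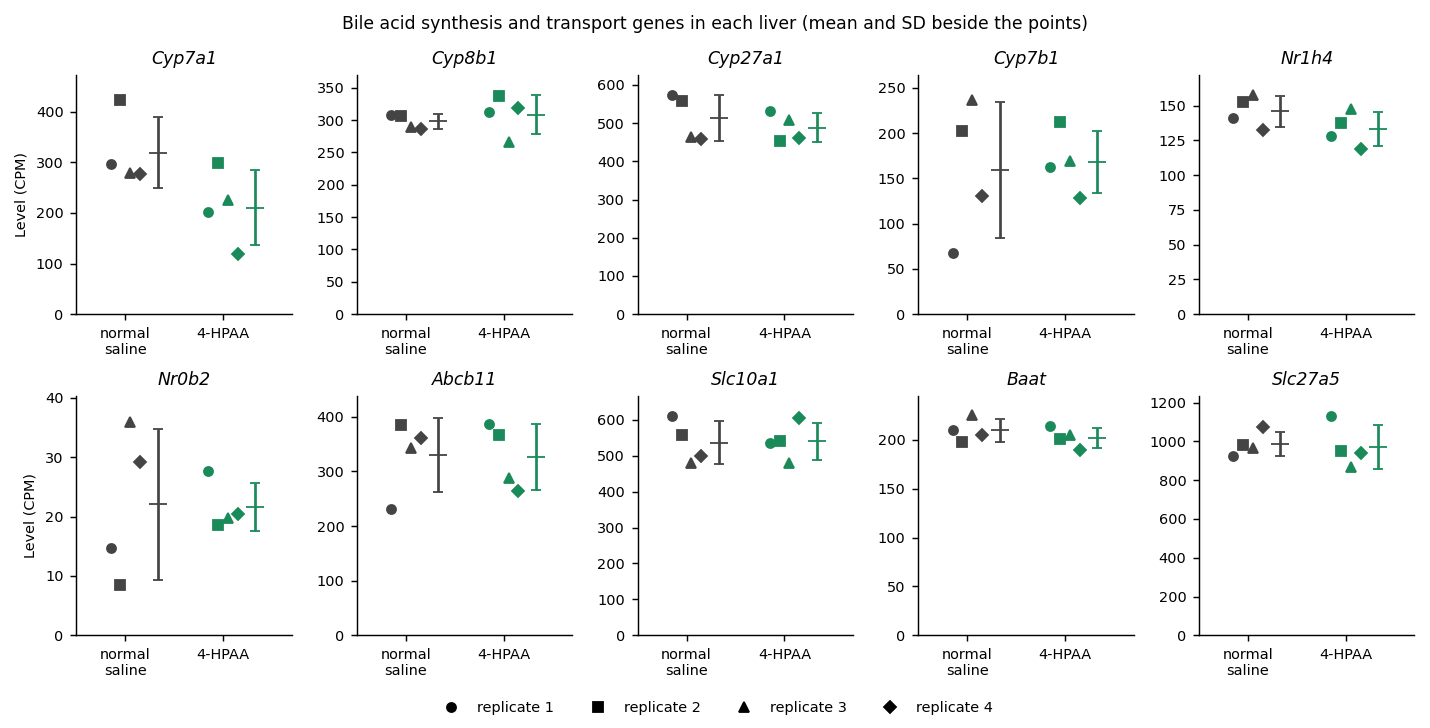
Levels of the 10 genes in CPM (vertical axes, starting at 0) in 4 normal saline and 4 4-HPAA livers, 1 point per mouse with the replicate number as its shape, and the mean with SD beside them. The groups overlap in every panel, and Cyp7a1, Cyp7b1 and Nr0b2 spread the most between mice.

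Cyp7a1 (ENSMUSG00000028240, chromosome 4 of GRCm38, 6265612 to 6275633, minus strand) encodes cholesterol 7α-hydroxylase, the rate-limiting enzyme of the classic route. It was at 296, 423, 279 and 277 CPM in NS replicates 1 to 4 and at 202, 298, 225 and 118 CPM in 4-HPAA replicates 1 to 4. Of the 4-HPAA mice, 3 lay below every NS mouse, and only 4-HPAA replicate 2 reached into the NS range. NS replicate 2 stood far above its group and 4-HPAA replicate 4 was the lowest of all. Group means were 319 ± 69.99 CPM with NS against 211 ± 74.2 CPM with 4-HPAA (SD, n = 4 per group). On the log2 scale 4-HPAA over NS came to -0.60, with a standard error (SE) of 0.25 (unadjusted p = 0.0383 from edgeR, adjusted p = 1.00), a fold of 0.661 with a 95% interval of 0.448 to 0.973. Nearly all of the count, 99.7% to 99.9%, was in the transcript Cyp7a1-201.

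The highest and the lowest Cyp7a1 library were the same 2 libraries that stood apart in red blood cell markers. With both left out, an alternative added after the data were seen, the log2 fold change of Cyp7a1 was -0.24 (SE 0.14, unadjusted p = 0.129 from edgeR, adjusted p = 1.00). Without any single library it ranged from -0.81 to -0.41. Kupffer cell markers, all 6 of which were detected, also had their highest sum in NS replicate 2 and their lowest in 4-HPAA replicate 4. These sums ranged from 73.6 to 246 CPM with NS and from 65.8 to 197 CPM with 4-HPAA. The part of blood and Kupffer cell RNA in the Cyp7a1 values was not tested. In bulk tissue, fewer cells of a type and less RNA per cell cannot be told apart.

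Cyp8b1 (ENSMUSG00000050445, chromosome 9, 121914356 to 121916305, minus strand) encodes sterol 12α-hydroxylase, which acts after Cyp7a1 and directs the classic route to cholic acid. It was the steadiest of the 10 genes among NS mice, at 308, 307, 290 and 287 CPM. In 4-HPAA mice it was at 312, 338, 265 and 319 CPM, on both sides of the NS values. 4-HPAA over NS gave a log2 fold change of 0.05 (SE 0.09, 95% interval -0.15 to 0.25). Means were 298 ± 11.1 CPM with NS against 309 ± 30.7 CPM with 4-HPAA (SD, n = 4 per group).

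The ratio of Cyp8b1 to Cyp7a1 within a mouse does not depend on library size, and it was the only one of 5 ratios whose groups did not overlap. With NS there were 1.04, 0.725, 1.04 and 1.04 Cyp8b1 counts per Cyp7a1 count in replicates 1 to 4. With 4-HPAA there were 1.55, 1.13, 1.18 and 2.71. Thus 3 of the 4 NS mice held nearly the same ratio, and the 4-HPAA mice all lay above them by unequal steps. The mean log2 ratio was -0.08 ± 0.26 with NS and 0.62 ± 0.58 with 4-HPAA (SD, n = 4 per group). This difference of 0.70 had p = 0.0286 in a two-sided exact permutation test, the smallest p that 4 mice against 4 can give, and p = 0.143 after adjustment over the 5 ratios. It was 0.30 without NS replicate 2 and 4-HPAA replicate 4 (p = 0.100, exact permutation test, the smallest possible with 3 mice against 3). It was 0.43 without 4-HPAA replicate 4 alone and 0.57 without NS replicate 2 alone (p = 0.0286 and p = 0.171, exact permutation test). Cyp7a1 is also part of the ratios to Cyp7b1 and to Nr0b2, so the 5 ratios are not independent. The log2 fold change was -0.60 for Cyp7a1 and 0.05 for Cyp8b1. The ratio of Cyp8b1 to Cyp7a1 thus mostly restates the Cyp7a1 difference and is not separate evidence. The part of red blood cell and Kupffer cell RNA in this ratio was not tested.

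**Figure D2:**
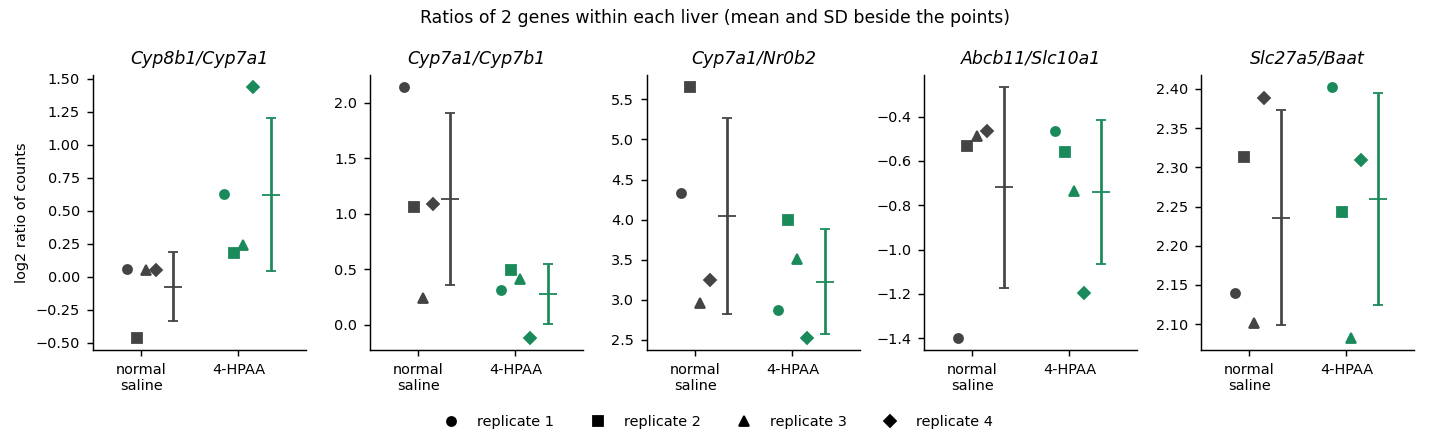
Log2 ratios of the counts of 2 genes within each liver (vertical axes, each with its own range) for 5 pairs of genes in 4 normal saline and 4 4-HPAA mice, 1 point per mouse with the mean and SD beside them. For Cyp8b1/Cyp7a1 every 4-HPAA mouse, from 0.18 to 1.44, lies above every normal saline mouse, from -0.46 to 0.06, and in the other ratios the groups overlap.

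Promoter sequence from RefSeq (GRCm38.p6) was matched for 6 of the 10 genes, and Cyp7a1, Cyp7b1, Baat and Slc27a5 were not matched. The 250 bases before the start of Nr0b2 and Cyp8b1 are printed 5′ to 3′ on the gene's strand, since Nr0b2 varied the most between mice of a group and Cyp8b1 had the narrowest range with NS. Capitals mark matches to TATAAA (bound by TBP in core promoters, gene strand) and, on either strand, to TCAAGG (a half-site of the nuclear receptor LRH-1) or to CAAAGTCCA (a motif of HNF4A). No capitals of different motifs overlap.
Nr0b2, chr4:133553126-133553375, plus strand: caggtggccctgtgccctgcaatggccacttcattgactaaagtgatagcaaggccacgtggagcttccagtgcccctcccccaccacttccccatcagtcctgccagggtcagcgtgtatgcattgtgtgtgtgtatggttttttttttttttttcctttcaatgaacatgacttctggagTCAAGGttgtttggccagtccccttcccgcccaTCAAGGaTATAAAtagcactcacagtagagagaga
Cyp8b1, chr9:121916306-121916555, minus strand: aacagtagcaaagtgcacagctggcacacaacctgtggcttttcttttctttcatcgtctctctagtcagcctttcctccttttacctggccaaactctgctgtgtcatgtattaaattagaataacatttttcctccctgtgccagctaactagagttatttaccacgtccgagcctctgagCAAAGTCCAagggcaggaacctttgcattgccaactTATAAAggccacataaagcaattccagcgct
The Nr0b2 window held TATAAA from 28 to 23 bases before the start and TCAAGG from 35 to 30 and from 68 to 63 bases before it. The Cyp8b1 window held TATAAA from 31 to 26 and CAAAGTCCA from 67 to 59 bases before the start. Nr0b2 and Cyp8b1 were the only ones of the 6 genes with a match in the windows searched. The windows of Cyp27a1, Abcb11, Nr1h4 and Slc10a1 held none of these motifs. The Nr1h4 window lies before the downstream start, that of Nr1h4-202. Sequence before the upstream start of Nr1h4-203 was not searched. Of 32851 promoter windows of this length, 7.59% held TATAAA, 12.5% held TCAAGG and 0.384% held CAAAGTCCA. These matches describe the sequence and are not binding sites measured here. No other motifs were searched, and a link between the matches and the spread between mice was not tested.

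Cyp27a1 (ENSMUSG00000026170, chromosome 1, 74713574 to 74737892, plus strand) encodes the mitochondrial sterol 27-hydroxylase that opens the alternative route and also oxidizes the side chain in the classic one. It was at 574, 559, 464 and 460 CPM with NS and at 532, 453, 507 and 461 CPM with 4-HPAA. Each group held mice near 460 CPM and mice well above 500 CPM, and the ranges overlapped. Its log2 fold change was -0.07 (SE 0.10). A minor transcript that retains an intron, Cyp27a1-202, held 3.59%, 3.13%, 3.14% and 5.32% of the gene's counts with NS and 3.22%, 2.28%, 1.85% and 1.93% with 4-HPAA. Only 4-HPAA replicate 1 lay within the NS range of this share, and the difference was not tested. Cyp27a1-203, the larger transcript that retains an intron, did not show it. Its share was 6.66%, 4.83%, 4.89% and 7.09% with NS and 7.33%, 5.09%, 4.12% and 5.08% with 4-HPAA, on both sides of the NS range.

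Cyp7b1 (ENSMUSG00000039519, chromosome 3, 18071950 to 18243338, minus strand) encodes oxysterol 7α-hydroxylase, the next enzyme of the alternative route, and is known to be higher in livers of male mice. With NS it was at 67.2, 202, 237 and 131 CPM, and with 4-HPAA at 163, 212, 169 and 128 CPM. NS replicate 1 was the lowest and NS replicate 3 the highest of all 8, so the 4-HPAA mice lay inside the NS range. The log2 fold change was 0.08 (SE 0.33, 95% interval -0.65 to 0.81). It was -0.18 without NS replicate 1 and 0.33 without NS replicate 3. The log2 ratio of Cyp7a1 to Cyp7b1, which sets the classic route against the alternative one, was 1.13 ± 0.78 with NS and 0.27 ± 0.27 with 4-HPAA (SD, n = 4 per group). Their difference of -0.86 had p = 0.114, and 0.286 after adjustment over 5 ratios (exact permutation test, two-sided). NS replicate 3 was the only NS mouse within the 4-HPAA range. Leaving out single libraries moved the difference over a range from -1.15 without NS replicate 3 (unadjusted p = 0.0286, exact permutation test) to -0.52 without NS replicate 1 (unadjusted p = 0.171, exact permutation test).

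Nr1h4 (ENSMUSG00000047638, chromosome 10, 89454234 to 89533585, minus strand) encodes FXR. With NS it was at 141, 152, 158 and 132 CPM and with 4-HPAA at 128, 138, 148 and 119 CPM. The 2 lowest mice were given 4-HPAA and the 2 highest NS, with overlap between. For Nr1h4 the log2 fold change was -0.13 (SE 0.09, 95% interval -0.33 to 0.07).

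FXR is known in forms with and without a short insert beside its DNA-binding domain, and the 3 Nr1h4 transcripts in the table differ in this way. The optional 12 bases, a multiple of 3, lie at chr10:89483372-89483383 on the minus strand (GENCODE, GRCm38), and they are printed in capitals with 9 bases of the coding transcript on each side, to show which forms the shares count.
Nr1h4-202 and Nr1h4-203: tggctgaatGTATGTATACAGgtttgttaa
Nr1h4-201: tggctgaatgtttgttaa
Transcripts with the 12 bases held 52.4%, 52.2%, 49.9% and 53.7% of the Nr1h4 counts with NS and 54.3%, 50.9%, 50.1% and 48.2% with 4-HPAA. Both forms were thus read at nearly equal shares in every liver, and the groups overlapped (52.1% ± 1.58 against 50.9% ± 2.53, SD, n = 4 per group). Nr1h4-203 starts 26936 bases upstream of Nr1h4-201 and alone held 44.4% to 49.9% of the counts. Since the pseudo-alignment program divides reads among transcripts that share sequence, these shares are estimates. The same holds for the transcript shares of the other genes given here.

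Nr0b2 (ENSMUSG00000037583, chromosome 4, 133553376 to 133556536, plus strand) encodes SHP, a receptor without a DNA-binding domain that FXR induces. It was at 14.7, 8.40, 36.0 and 29.2 CPM with NS, and at 27.6, 18.6, 19.7 and 20.5 CPM with 4-HPAA. The NS mice spanned 4.29-fold and enclosed all 4-HPAA mice, which spanned 1.48-fold. Its log2 fold change of -0.03 had a SE of 0.37 and a 95% interval of -0.87 to 0.80. It turned to 0.31 without NS replicate 3. NS replicate 2, highest in Cyp7a1, was the lowest in Nr0b2. The log2 ratio of Cyp7a1 to Nr0b2 was 4.05 ± 1.23 with NS and 3.23 ± 0.66 with 4-HPAA (SD, n = 4 per group). This difference of -0.82 had p = 0.286, and 0.476 after adjustment (exact permutation test, two-sided). It was -0.29 without NS replicate 2, -1.18 without NS replicate 3, and -0.05 without NS replicate 2 and 4-HPAA replicate 4.

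Abcb11 (ENSMUSG00000027048, chromosome 2, 69238282 to 69342616, minus strand) encodes the bile salt export pump of the canalicular membrane. With NS it was at 232, 385, 342 and 361 CPM, and with 4-HPAA at 387, 367, 287 and 264 CPM. NS replicate 1 was lowest and the other mice of both groups were interleaved. For the pump, the log2 fold change was -0.02 (SE 0.17, 95% interval -0.41 to 0.37). Gm13613 and Gm13614 overlap Abcb11 on the other strand, and Gm13614 had a mean of 1.4 counts.

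Slc10a1 (ENSMUSG00000021135, chromosome 12, 80953183 to 80968705, minus strand) encodes NTCP, the sodium-dependent bile acid uptake carrier of the sinusoidal membrane. It was at 611, 557, 480 and 498 CPM with NS and at 535, 541, 479 and 605 CPM with 4-HPAA. The ranges nearly coincided. Their means differed by a log2 fold change of 0.01 (SE 0.11, 95% interval -0.23 to 0.25). Within a mouse, the log2 ratio of the export pump to the uptake carrier was -0.72 ± 0.45 with NS and -0.74 ± 0.32 with 4-HPAA (SD, n = 4 per group). The difference of -0.02 had p = 0.8286 (exact permutation test, two-sided).

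The 2 main Slc10a1 transcripts start 626 bases apart, and the other 2, Slc10a1-204 and Slc10a1-203, start 627 and 721 bases downstream of the first. The 100 bases before each main start are given on the minus strand (RefSeq, GRCm38.p6), because the share of the starts differed between mice. None of the 3 motifs above matched in the 250 bases before either, so no letters are in capitals.
Slc10a1-202, upstream start, chr12:80968706-80968805: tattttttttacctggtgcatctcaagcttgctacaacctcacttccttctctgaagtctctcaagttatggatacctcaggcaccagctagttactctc
Slc10a1-201, downstream start, chr12:80968080-80968179: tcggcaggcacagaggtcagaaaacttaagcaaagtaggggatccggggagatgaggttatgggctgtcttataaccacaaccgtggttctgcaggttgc
The upstream start, used by Slc10a1-202 alone, held 29.5%, 40.7%, 30.1% and 23.9% of the Slc10a1 counts with NS and 31.5%, 45.9%, 34.6% and 29.6% with 4-HPAA. Replicate 2 was highest in either group, and the ranges overlapped (31.1% ± 7.01 against 35.4% ± 7.30, SD, n = 4 per group). As for Nr1h4, these shares are estimates. The transcript of the downstream start, Slc10a1-201, held 53.1% to 74.9%. Counted by this transcript alone, the log2 fold change of Slc10a1 was -0.08 (SE 0.14).

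**Figure D3:**
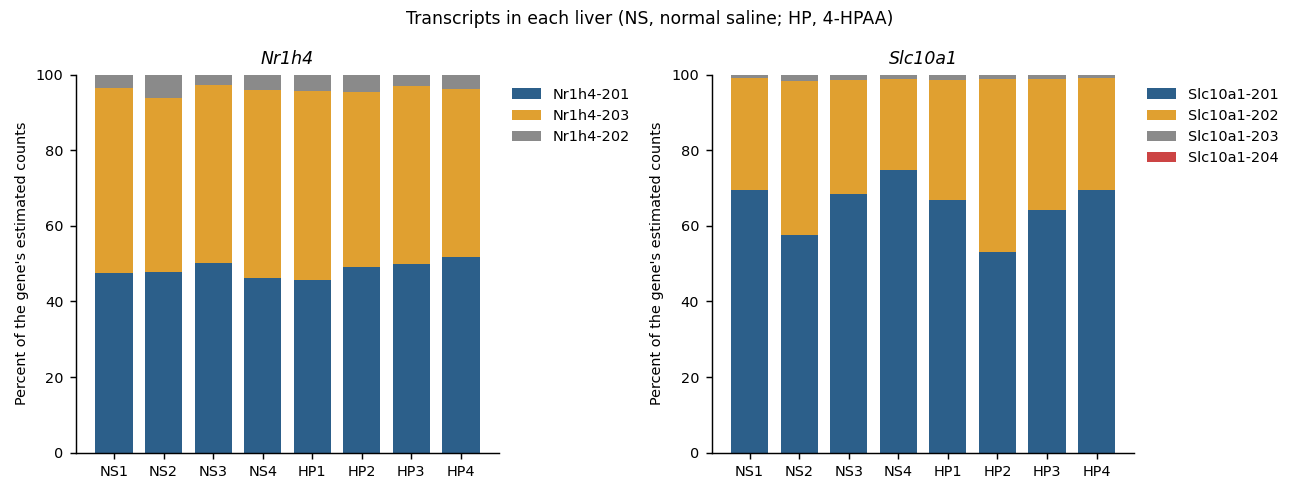
Shares of the transcripts of Nr1h4 (left) and Slc10a1 (right) as a percent of the gene's estimated counts (vertical axes, 0 to 100) in each of 4 normal saline (NS) and 4 4-HPAA (HP) livers, as stacked bars without error bars. Nr1h4-201 and Nr1h4-203 share the counts nearly equally in every mouse, while Slc10a1-202 ranges from 23.9% to 45.9% and is highest in replicate 2 of each group.

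Slc27a5 and Baat carry out conjugation. Slc27a5 (ENSMUSG00000030382, chromosome 7, 12988346 to 12998192, minus strand) encodes bile acyl-CoA synthetase, which activates bile acids, and was at 927, 983, 966 and 1076 CPM with NS and at 1131, 950, 867 and 939 CPM with 4-HPAA. The 4-HPAA mice lay on both sides of the NS range. Its log2 fold change was -0.02 (SE 0.10, 95% interval -0.25 to 0.20). Baat (ENSMUSG00000039653, chromosome 4, 49489422 to 49506557, minus strand) encodes the acyltransferase that joins the activated acid to its amino acid. It was at 210, 198, 225 and 205 CPM with NS and at 214, 201, 205 and 189 CPM with 4-HPAA. Its values were the closest together of the 10 genes, and the groups overlapped. Its log2 fold change was -0.05 (SE 0.07, 95% interval -0.22 to 0.11). The log2 ratio of Slc27a5 to Baat was 2.24 ± 0.14 with NS and 2.26 ± 0.13 with 4-HPAA (SD, n = 4 per group, p = 0.857, exact permutation test, two-sided).

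Levels of different genes were compared in TPM, the share after division by transcript length, over all 8 livers. Slc27a5 was highest at 733 ± 47.3 TPM (SD, n = 8), above Slc10a1 in every mouse. Slc10a1 at 519 ± 52.4 TPM and Cyp27a1 at 498 ± 56.3 TPM overlapped. Cyp8b1 followed at 254 ± 19.7 TPM, without overlap with Cyp27a1 above it or Baat, at 173 ± 11.4 TPM, below it. Cyp7b1 (123 TPM), Nr1h4 (115 TPM), Abcb11 (114 TPM) and Cyp7a1 (108 TPM) did not differ beyond their spread. Nr0b2 was lowest at 31.4 ± 12.4 TPM, below Cyp7a1 in every mouse although the ranges of both genes overlapped.

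The genes differed widely in their spread between mice of the same group. The SD of log2 CPM within groups was 0.70 for Nr0b2, 0.61 for Cyp7b1, 0.45 for Cyp7a1 and 0.30 for Abcb11. Only 2.10% of all tested genes had a larger SD than Nr0b2, 3.51% a larger one than Cyp7b1 and 9.13% a larger one than Cyp7a1. At the other end, 94.1% of tested genes had a larger SD than Baat, whose SD was 0.08. Cyp8b1, Cyp27a1, Nr1h4, Slc10a1, Slc27a5 and Baat each had an SD below that of at least 62.0% of genes. Among genes over 10 CPM alone, the share with a larger SD was 90.4% for Baat, 66.9% for Cyp8b1, 58.1% for Nr1h4 and 53.9% for Slc27a5. It was 46.6% for Cyp27a1 and 44.1% for Slc10a1, so both varied more than most genes over 10 CPM. For Nr0b2, Cyp7b1 and Cyp7a1 this share was 0.993%, 1.44% and 3.22%.

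**Figure D4:**
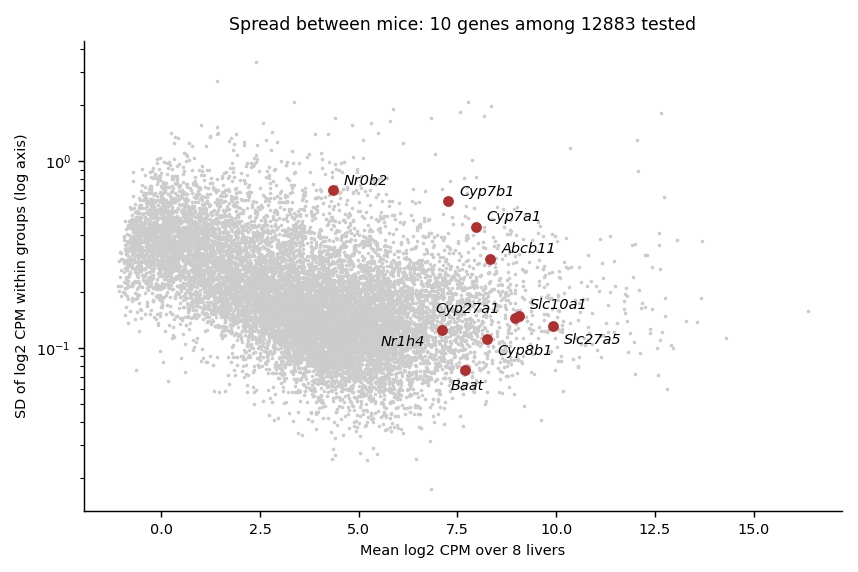
SD of log2 CPM within groups (vertical log axis) against the mean log2 CPM over 8 livers (horizontal axis) for 12883 genes tested (grey) and the 10 bile acid genes (red, named). Nr0b2, Cyp7b1 and Cyp7a1 lie near the upper edge for genes of their level, with SDs of 0.70, 0.61 and 0.45, and Baat near the lower edge with 0.08.

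Whether the genes moved together from mouse to mouse was examined over the 45 pairs of the 10 genes. Pearson's r of log2 CPM over 8 mice was positive for 25 pairs and ranged from -0.62 to 0.76. No pair had an adjusted p under 0.05 over the 45 (smallest 0.589, exact permutation test), and 2 had an unadjusted p under 0.05 by r. By rho 1 pair had, Abcb11 and Slc27a5, with rho = 0.81 (unadjusted p = 0.0218, adjusted p = 0.962, exact permutation test) and r = 0.64 (unadjusted p = 0.0851, adjusted p = 0.734, exact permutation test), which was 0.77 without the 2 mice farthest from the median of Abcb11. By deviations from the group means 1 pair had, Cyp8b1 and Slc10a1, with r = 0.69 (unadjusted p = 0.0417, adjusted p = 0.762, exact permutation test). Cyp7a1 and Nr1h4 had r = 0.76 (unadjusted p = 0.0262, exact permutation test) and rho = 0.64 (unadjusted p = 0.0962, adjusted p = 0.962, exact permutation test), and r was 0.31 without the 2 mice farthest from the median of Cyp7a1, on which the relation thus rested. Leaving out the extremes of a range lowers r in general. By deviations from the group means r was 0.64 (unadjusted p = 0.134, adjusted p = 0.762, exact permutation test). Cyp7b1 and Abcb11 had r = 0.75 (unadjusted p = 0.0235, exact permutation test) and rho = 0.50 (unadjusted p = 0.216, adjusted p = 0.973, exact permutation test), with r = 0.51 without the 2 mice farthest from the median of Cyp7b1. Nr0b2 and Cyp7a1 had r = -0.42 (unadjusted p = 0.289, adjusted p = 0.845, exact permutation test) and rho = -0.57 (unadjusted p = 0.151, adjusted p = 0.962, exact permutation test).

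The rest of the pathway was described with 64 genes, of which 58 were tested. By edgeR 0 passed at an adjusted p under 0.05, as by DESeq2, 2 had an unadjusted p under 0.05, both higher with 4-HPAA (0.753% of all genes), and in 0 were the groups separate (1.2% of all genes). The count with an unadjusted p under 0.05 was 5 without 4-HPAA replicate 2, 1 without 4-HPAA replicate 1 or replicate 3, and 1 without NS replicate 2 and 4-HPAA replicate 4 together. Of all genes, 253 of 12908, 340 of 12927, 204 of 12924 and 285 of 13056 had one in these fits, in that order. The log2 fold change was above 0 for 39 and below 0 for 19 of the 58 genes (49.6% of all genes were below 0), with a median of 0.04. Of 20 further genes of synthesis tested, 13 were above 0, and Acot8, a peroxisomal thioesterase that cleaves bile acid CoA esters, was the only one with an unadjusted p under 0.05. Acot8 was at 12.4, 14.2, 14.4 and 12.4 CPM with NS and at 15.5, 14.2, 17.4 and 15.9 CPM with 4-HPAA, which gave a log2 fold change of 0.24 (SE 0.09, unadjusted p = 0.0275 from edgeR, adjusted p = 1.00). Only 4-HPAA replicate 2 lay within the NS range. Hsd17b6, a hydroxysteroid dehydrogenase, had a log2 fold change of 0.45 and Cyp3a11, which hydroxylates bile acids and drugs, one of 0.25 (SEs 0.26 and 0.14). Cyp3a11 has close paralogs with which reads can be shared.

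Among 24 regulators tested, 14 were above 0. Foxa2, a forkhead factor of hepatocytes, had the largest log2 fold change of them. It was at 12.4, 19.1, 11.9 and 16.4 CPM with NS. With 4-HPAA it was at 22.2, 32.6 and 25.4 CPM in replicates 1, 3 and 4, above every NS mouse, while replicate 2 was near the bottom of the NS range. The log2 fold change was 0.63 (SE 0.27, unadjusted p = 0.0432 from edgeR, adjusted p = 1.00). Zfp36l1, an mRNA-decay factor known to bind Cyp7a1 mRNA, had a log2 fold change of 0.26 (SE 0.14), and Nr2f1, an orphan nuclear receptor read at under 1 CPM, one of 0.36 (SE 0.27). Vdr, Gpbar1 and Fgf15 had at most 4 counts in any library and were not tested. Fgf15, the ileal hormone that represses Cyp7a1, is made in the intestine.

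Of the 4 further uptake carriers, all organic anion transporters, Slco1a4 had a log2 fold change of -0.22, Slco1a1 one of 0.11 and Slco2b1 one of 0.06 (SEs 0.19, 0.17 and 0.07). Reads of Slco1a1 and Slco1a4 can be shared within their family. Of 10 export genes tested, 9 were above 0. Abcb4, the phosphatidylcholine floppase of the canaliculus, was at 250 ± 17.4 CPM with NS against 275 ± 21.4 CPM with 4-HPAA (SD, n = 4 per group), and its log2 fold change was 0.14 (SE 0.09). Abcc4, a basolateral exporter, was at 1.54 to 2.70 CPM and Abcg2 at 51.6 to 79.7 CPM over both groups, and had log2 fold changes of 0.23 (SE 0.20) and 0.13 (SE 0.12). Slc51a and Slc51b, the subunits of the basolateral exporter OST, had 2 to 18 counts per library and were not tested.

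**Figure D5:**
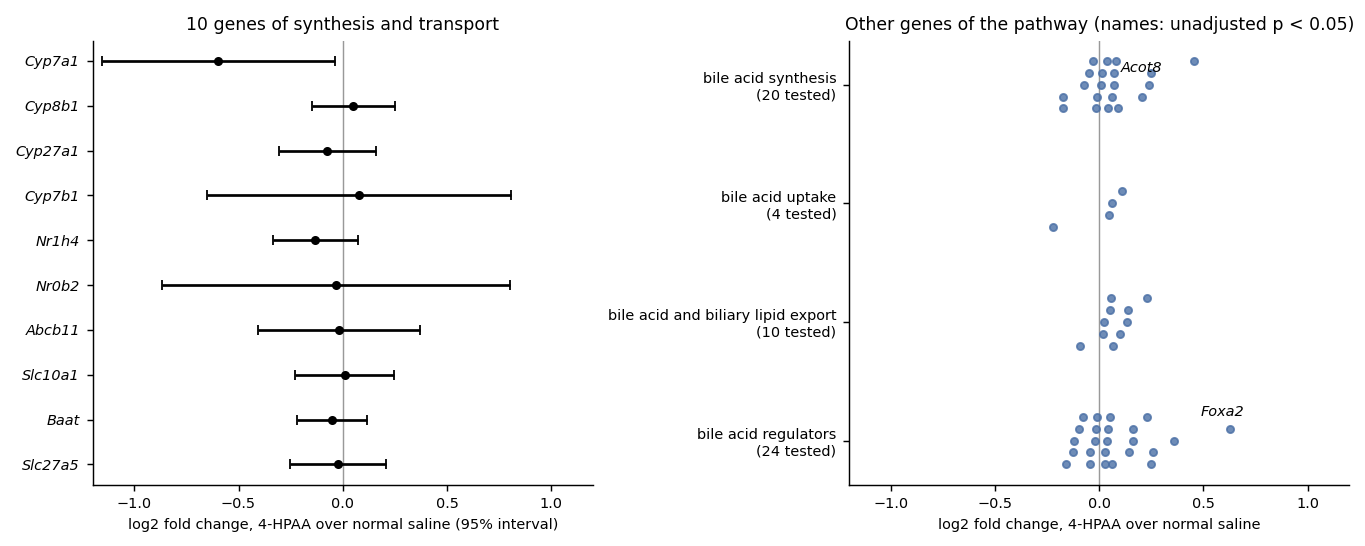
Log2 fold changes of 4-HPAA over normal saline (horizontal axes) from edgeR, on the left for the 10 genes with their 95% intervals and on the right for 58 other tested genes of the pathway, 1 point per gene in 4 lists. Only the interval of Cyp7a1, -1.16 to -0.04, leaves out 0 on the left, and Foxa2 (0.63) and Acot8 (0.24) are the named points on the right.

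The ileal bile acid carrier Slc10a2, listed as a cholangiocyte marker, was at 53.7, 50.1, 37.4 and 40.5 CPM with NS and at 51.3, 33.9, 25.3 and 34.2 CPM with 4-HPAA. Of the 4-HPAA mice 3 lay below every NS mouse, and the log2 fold change was -0.33 (SE 0.20, unadjusted p = 0.132 from edgeR, adjusted p = 1.00). Krt19, a keratin that defines cholangiocytes, was at 0.27 to 1.12 CPM and Krt7 at 0.45 to 0.99 CPM over both groups. Of the 5 cholangiocyte markers tested, 2 were above 0 and 3, with Slc10a2, below. Log2 fold changes were 0.43 for Sox9, 0.04 for Krt7, -0.06 for Spp1 and -0.15 for Epcam (SEs 0.31, 0.28, 0.23 and 0.29).

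For each of the 10 genes, the 2 genes with the most similar pattern over the 8 livers were named, by Pearson's r of log2 CPM among 11998 genes, as a description. Nearest to Cyp7a1 were Tgm1 (r = 0.97) and Dennd3 (0.95). Tgm1, a transglutaminase, went from 15.3 CPM in NS replicate 2 to 5.28 CPM in 4-HPAA replicate 4, the same highest and lowest mice as for Cyp7a1. Nearest to Cyp7b1 were Mup8 (0.98) and Mup14 (0.97), major urinary protein genes of a family of near-identical copies among which reads can be shared, and Mup14 went from 290 CPM in NS replicate 1 to 2766 CPM in NS replicate 3. Nearest to Nr0b2 were Dnajc7 (0.99) and Rpgrip1l (0.97), and to Nr1h4 Tmem87a (0.98) and Fam124a (0.98). The closest to Abcb11 were Klhdc7a (0.97) and Aqp9 (0.97), to Slc10a1 Rpl15-ps3 (0.96) and Cep295 (0.94), and to Slc27a5 Ikbke (0.97) and Galm (0.95). For Cyp27a1 they were Slc39a14 (0.96) and Gps2 (0.93), for Cyp8b1 M6pr (0.93) and Coro1a (0.93), and for Baat Il15ra (0.93) and Prok1 (0.92). None of the 10 genes was nearest to another of the 10.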

How the data were processed

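Liver RNA of 4 normal saline and 4 4-HPAA mice was sequenced as paired-end 100 bp reads from directional mRNA libraries. With kallisto, a pseudo-aligner, the authors made the deposited table of estimated counts, 1 per transcript and mouse, neither normalized nor pooled. The table lists Ensembl transcripts, although the methods name an NCBI annotation (GRCm38.p6). Of the values above 0, 9.36% were whole, and 0 columns lacked a sample.

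Gene counts are rounded sums over the transcripts of GENCODE release M21 (116728 of 119414 transcripts matched; the rest held 0.703% to 1.06% of a library). The main test was edgeR 4.0.16 in R 4.3.3 on genes reaching 10 counts in all libraries (quasi-likelihood, TMM, Benjamini-Hochberg over 12883 genes, threshold 0.05). Dividing a log2 fold change by the root of its F statistic gave its standard error. Log2 CPM used a prior count of 2. TPM used annotated transcript lengths. Ratios and correlations were tested over all 70 splits and 40320 orders of the 8 mice (scipy 1.17.1). The paper's methods mention that flow cells were joined before alignment, without saying which mice each held. Nothing else read here describes batches beyond separate replicates.

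Alternatives were DESeq2 1.42.0, RLE normalization, total counts, other count filters, the most abundant transcript of each gene, the replicate number as a block, and libraries left out. Steps were tested on simulated data. The 10 genes and all lists were chosen with earlier results of these data known. Named are the 10 genes, and of the other pathway genes those with an unadjusted p under 0.05 or separate groups and the 3 largest log2 fold changes of each list. Also named are the 2 most similar genes of each of the 10 (mean CPM of at least 1), the most abundant gene of each marker or context list, and some clock, Y-linked and Saa genes. Genes that the text gives outside this rule, such as Krt19, were chosen after their values were seen.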

Additional observations from a re-analysis of the deposited data

Results flagged for a closer look

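Among 76 groups of 4 libraries (levels, ratios and summed markers), 6 held a library whose gap to its neighbour exceeded Dixon's 95% limit as a share of the group's range. Chance gives about 1 in 20 groups, and these groups are not independent of each other.

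Cyp7a1 was at 423 CPM in NS replicate 2, against 277 to 296 CPM in the other NS mice (gap 0.866 of the range). The log2 ratio of Cyp8b1 to Cyp7a1 was -0.46 in that library, against 0.05 to 0.06 in the others (gap 0.990). Red blood cell markers summed to 2560 CPM there (gap 0.944), and to 735 CPM in 4-HPAA replicate 4 (gap 0.981), the library with the lowest Cyp7a1 level. The log2 ratio of Abcb11 to Slc10a1 was -1.40 in NS replicate 1, against -0.53 to -0.46 in the other NS mice (gap 0.927), and the same library was lowest in Cyp7b1. Markers of intestine and pancreas summed to 76.1 CPM in NS replicate 1, against 56.4 to 59.4 CPM in the other NS mice (gap 0.851), mostly as Fabp2, while Prss2, Amy2b and Pnlip were at 0.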

How the results depend on the processing

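None of the 10 genes passed under any alternative run, nor did any of the 58 to 64 other pathway genes tested under the alternatives run on them (all but the most abundant transcript). The number of genes called was 2 with DESeq2 and 0 to 1 with each library left out (1 without 4-HPAA replicate 1). Genes with an unadjusted p under 0.05 numbered 415 of 17770 with a filter of 10 summed counts, 528 of 22597 with no filter, and 196 to 340 with each library left out. With libraries left out in turn, the median log2 fold change of the 10 genes ranged from -0.10 to 0.02, and Cyp7a1 (-0.81 to -0.41) kept an unadjusted p under 0.05 without NS replicate 1, 3 or 4 or 4-HPAA replicate 2. It lost this without NS replicate 2 or 4-HPAA replicate 1, 3 or 4. The signs of small log2 fold changes turned, in Cyp7b1 (-0.18 to 0.33), Nr0b2 (-0.30 to 0.31), Abcb11 (-0.15 to 0.066), Slc10a1 (-0.056 to 0.078) and Slc27a5 (-0.10 to 0.027). The log2 ratio differences ranged from 0.43 to 0.84 for Cyp8b1/Cyp7a1, -1.15 to -0.52 for Cyp7a1/Cyp7b1, -1.18 to -0.29 for Cyp7a1/Nr0b2, -0.25 to 0.13 for Abcb11/Slc10a1 and -0.024 to 0.083 for Slc27a5/Baat. Without NS replicate 2 and 4-HPAA replicate 4 together, an alternative added after the data were seen, the Cyp8b1/Cyp7a1 difference was 0.30 (p = 0.100, exact permutation test), that of Cyp7a1/Nr0b2 -0.052, that of Abcb11/Slc10a1 0.19, and the log2 fold changes of Abcb11 and Slc10a1 were 0.15 and -0.040. With total counts only Slc10a1 was at -0.0010. By the most abundant transcript it was at -0.078, and Abcb11/Slc10a1 was 0.073. The cause of these turns was not tested.

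Same-numbered libraries of the groups had correlated deviations of 0.0398 to 0.480, not all over 0.1, so the numbers were not taken to pair mice, and 4 of 8 libraries correlated best with their own number. In the fit with a replicate block, 0 genes were called and 336 had an unadjusted p under 0.05 (edgeR's quasi-likelihood test, against 225 without it). Cyp7a1 was then at -0.65 (SE 0.14, unadjusted p = 0.00228, adjusted p = 1.00, edgeR's quasi-likelihood test), Nr0b2 at 0.14, and Cyp8b1/Cyp7a1 at 0.70 with p = 0.125, the smallest that an exact test over 4 pairs can give. Nr0b2, the rarest of the 10 genes, had at least 245 counts in each library. Counting error was not compared with the spread between mice.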

Other observations

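Clock genes, given because several bile acid genes are known to cycle through the day, varied within both groups. Dbp ranged from 48.3 to 89.0 CPM with NS and from 46.7 to 105 CPM with 4-HPAA, Nr1d1 from 13.1 to 21.3 and from 13.9 to 31.4 CPM, Per1 from 51.2 to 63.8 and from 40.4 to 63.1 CPM, and Arntl from 0.62 to 3.27 and from 0.66 to 3.46 CPM. The time of day at necropsy is not given in the sources used here. Of 14 clock genes tested 0 passed and 0 had an unadjusted p under 0.05 (1.75% of all genes, edgeR's quasi-likelihood test). DESeq2 called 2 genes in all. Of the 14 clock genes 8 were above 0, while 49.6% of all genes were below 0. Tef was the most abundant at 189 to 272 CPM.

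Of 11 acute phase genes 10 had a log2 fold change below 0 (49.6% of all genes), with a median of -0.13, and 0 passed (edgeR's quasi-likelihood test). Apcs, named after its value was seen, was the only one with an unadjusted p under 0.05, on the lower side, where 0.994% of all genes lay. It was at 52.1 to 90.8 CPM with NS and 46.6 to 63.8 CPM with 4-HPAA, a log2 fold change of -0.44 (unadjusted p = 0.0239, adjusted p = 1.00, edgeR's quasi-likelihood test). Saa1, Saa2 and Saa3 had log2 fold changes of -0.27, -0.14 and 0.30 (SEs 0.22, 0.14 and 0.19), and the most abundant gene, Hpx, one of -0.02.

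The most abundant markers were Alb of hepatocytes (73130 to 100790 CPM), Cd5l of Kupffer cells (23.7 to 98.3 CPM), Stab2 of sinusoidal endothelium (24.8 to 49.1 CPM), Dcn of stellate cells (54.9 to 113 CPM), Hbb-bs of red blood cells (31.0 to 1177 CPM) and Fabp2 of intestine (43.6 to 66.2 CPM).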
